A study of Rattus norvegicus with 4 samples.

Results

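The genes described here are the matrix metalloproteinases Mmp2, Mmp3, Mmp9, Mmp11, Mmp12, Mmp13 and Mmp14 and the tissue inhibitors of metalloproteinases Timp1, Timp2 and Timp3, 10 genes chosen by name. Of these, 9 had a probe that could be named, 1 probe each, among 8927 genes with a named probe. No probe of the arrays could be assigned to Mmp13, and it is not analysed here.

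RNA came from cultured cells of the Fisher 344 rat (written fisher 344 rat in the labels) on 4 Agilent 1-colour arrays, with 1 array for each of 4 groups. Neural stem cells came from the hippocampus (HPC NSC) or the olfactory bulb (OB NSC), and each stem cell culture gave rise to a culture of neurons, named HPC Neu and OB Neu. The series title calls the sources adult and concerns insulin biosynthesis. The labels give no age in weeks, treatment or time in culture. Each array held total RNA mixed from 3 independent experiments, so it shows their average and no spread between them. The 2 stem cell arrays shared a slide, as did the 2 neuron arrays, so cell state and slide cannot be told apart, whereas sources are compared inside a slide.

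Matrix metalloproteinases are zinc-dependent endopeptidases that cut collagens, proteoglycans and other proteins outside the cell. Most are made as inactive proenzymes: some are secreted and others, such as Mmp14, are anchored in the cell membrane. The TIMPs bind the active site and block it, and the balance of enzyme and inhibitor sets how much matrix is broken down. In the adult brain the gelatinases Mmp2 and Mmp9 have been studied in the migration of new neurons, in vessel remodelling and in injury.

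Several of these genes stand in a cluster on rat chromosome 8, in the order Mmp13, Mmp12, Mmp1b, Mmp3, Mmp1, Mmp10, Mmp8, Mmp27, Mmp20 and Mmp7. Promoter sequences from RefSeq on the GRCr8 assembly were matched for 7 of the 10 genes, all but Mmp2, Mmp9 and Mmp14. Within 250 bases before the start of the gene, the heptamer TGAGTCA or its reverse complement TGACTCA, the AP-1-type element bound by Fos and Jun proteins, was found in 3 of the 7, namely Mmp3, Mmp12 and Mmp13. It was found in 4.05% of the 33469 promoters of the same length. The element TATAAA was found in 12.9% of them, and the GC box GGGCGG in 30.5%, both searched on either strand. No GC box was found for Mmp3, Mmp12 or Mmp13, and 1 or more were found for Mmp11, Timp1, Timp2 and Timp3. Of the 7 cluster genes searched (Mmp13, Mmp12, Mmp3, Mmp1, Mmp10, Mmp8 and Mmp7), 6 held the AP-1-type heptamer. Mmp1b, Mmp27 and Mmp20 were not looked up. The sequences below show these letters in 2 of the genes described here and in their cluster neighbours Mmp10 and Mmp7. Mmp10 and Mmp7 were picked after their values were seen. The 100 bases before each start are written 5′ to 3′ on the gene's strand, with the AP-1-type heptamer and TATAAA in capitals. They lie at chr8:12925181-12925280 (Mmp3), chr8:12866552-12866651 (Mmp12), chr8:12974607-12974706 (Mmp10) and chr8:13132943-13133042 (Mmp7), all on the plus strand, and at chrX:3771123-3771222 on the minus strand (Timp1, shown as a promoter without either element).
Mmp3: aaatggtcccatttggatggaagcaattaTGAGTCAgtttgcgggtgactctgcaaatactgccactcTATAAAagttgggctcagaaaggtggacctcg
Mmp12: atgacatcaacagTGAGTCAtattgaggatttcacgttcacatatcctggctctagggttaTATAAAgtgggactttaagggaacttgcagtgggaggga
Mmp10: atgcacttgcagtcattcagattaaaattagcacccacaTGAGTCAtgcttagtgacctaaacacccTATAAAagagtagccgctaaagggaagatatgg
Mmp7: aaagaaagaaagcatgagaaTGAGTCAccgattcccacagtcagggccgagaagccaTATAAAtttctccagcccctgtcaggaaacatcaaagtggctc
Timp1: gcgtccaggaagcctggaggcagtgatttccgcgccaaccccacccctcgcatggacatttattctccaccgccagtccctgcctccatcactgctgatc
Counted back from the start, with -1 as the last base before it, the heptamer began at -71 in Mmp3, -87 in Mmp12, -61 in Mmp10 and -80 in Mmp7. The TATAAA nearest to the start began at -32, -39, -33 and -43 in the same order. A match of letters is a description and not a measured binding site.

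Probes well above background made up 60.2% to 74.0% of an array. In the neuron cultures the labelled cell type was not borne out by all of its markers. Of 7 neuron markers, 2 were higher by 2-fold or more on the neuron array and 3 lower in hippocampus. There 21.9% of all genes compared were higher and 26.8% lower. In olfactory bulb 2 were higher and 5 lower, beside 26.9% and 20.0% of all genes compared. Tubb3 differed by -2.73 and -3.08 log2 units in hippocampus and olfactory bulb, Map2 by 0.66 and -1.35, and Snap25 by 3.97 and 3.08. Stmn2 was higher by at least 5.83 and 5.01. The summed signal of the 7, in units of the array's 75th percentile, was 7.15 and 7.75 on the hippocampal and olfactory bulb stem cell arrays and 3.34 and 1.89 on the neuron arrays. Markers of pericytes, fibroblasts and smooth muscle went the other way. All 7 measured ones, among them Pdgfrb, Col3a1 and Dcn, were higher on both neuron arrays. On each stem cell array 1 of 7 was well above background. The others entered through the neuron arrays alone and could not have come out lower. The summed signal of the 7 was 0.334 and 0.175 on the stem cell arrays against 184 and 317 on the neuron arrays. The 7 astrocyte markers, such as Gfap, Aqp4 and S100b, summed to 6.90 and 6.97 on the stem cell arrays and 109 and 98.9 on the neuron arrays. On a log2 scale of the same units, Slc1a3 (5.91 and 6.14) and Gja1 (5.56 and 4.51) were the highest there. S100b differed between states by -0.30 in hippocampus and 1.05 in olfactory bulb. Those of microglia and macrophages, among them Aif1, Cd68 and Csf1r, summed to 0.456 and 0.547 against 5.69 and 4.29. Itgam and Cx3cr1 were not well above background on any array. Of this list, Cd14 was the highest on the neuron arrays (2.14 and 0.77 on that log2 scale). Cd68 differed between states by 0.40 and 0.75 and Csf1r by 0.47 and 1.44. Endothelial markers summed to 0.309 and 0.244 against 6.58 and 4.08, with Pecam1 not well above background anywhere, and the 3 cell cycle markers summed to 142 and 102 against 12.6 and 9.84. The 4 oligodendrocyte lineage markers summed to 282 and 188 against 32.2 and 41.9, and the 5 neural stem and progenitor markers to 249 and 194 against 183 and 171. Sums for pericyte and fibroblast, astrocyte, microglia and endothelial markers were higher on the neuron arrays, like most MMP and TIMP genes given next. Those for neuron, cell cycle, oligodendrocyte lineage and stem and progenitor markers were lower there. The part of these lists in the MMP and TIMP differences was not tested. Stmn2, Slc1a3, Gja1 and Cd14 were named after their values were seen. In RNA from whole cultures, fewer cells of a type and less RNA per cell cannot be told apart.

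Signals below are background-subtracted fluorescence intensities with the stem cell cultures before the neuron cultures and hippocampus before olfactory bulb. Where a probe was printed as 10 spots the error is the SD over spots. Where it was printed once the error is the scanner software's own estimate. Both describe the array and not the spread between cultures, for which there is no replicate. For comparison, each signal was converted to log2 and the array's 75th percentile was subtracted, because that percentile differed between arrays (506, 829, 845 and 777). A level is such a log2 value, and a difference is 1 level minus another. Where a stem cell signal was not well above background, the difference is a lower bound set by the dimmest probe that was, and is written "at least".

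The gelatinase Mmp2, a secreted protease that cleaves denatured collagen and collagen IV, was low in both stem cell cultures and far higher in both neuron cultures. Its signal was 125 ± 14.5 (SD of 10 spots) in HPC NSC and 133 ± 9.79 in OB NSC, against 42231 ± 1063 in HPC Neu and 41976 ± 1406 in OB Neu. The levels were -1.97, -2.62, 5.71 and 5.85. Both neuron cultures lay far above both stem cell cultures, and within each state the 2 sources lay less than 1 log2 unit apart. The neuron minus stem cell difference was 7.68 in hippocampus (205-fold) and 8.48 in olfactory bulb (356-fold). Among the genes well above background on both arrays, Mmp2 ranked 28 of 5605 from the highest difference in hippocampus and 26 of 5776 in olfactory bulb.

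Mmp14, the membrane-anchored protease that activates the Mmp2 proenzyme at the cell surface together with Timp2, was not well above background in either stem cell culture and had a strong signal in both neuron cultures. Its signal was 3.20 and 3.46 in the stem cell cultures and 46513 (error 4651) in HPC Neu and 75409 (error 7541) in OB Neu. The difference was at least 2459-fold in hippocampus and at least 6502-fold in olfactory bulb. With normexp it was 8.67 and 10.56 log2 units, below these bounds.

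The other gelatinase, Mmp9, was not well above background in either stem cell culture, at 3.24 ± 0.880 in HPC NSC and 4.48 ± 2.08 in OB NSC (SD of 9 and 10 spots). In the neuron cultures its signal was 137 ± 8.07 and 636 ± 28.7. It was thus well above background in both neuron cultures, with the olfactory bulb culture the higher. The neuron minus stem cell difference was at least 2.86 in hippocampus (7.24-fold) and at least 5.78 in olfactory bulb (54.8-fold). With normexp it was 0.93, short of 2-fold, and 3.45.

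Mmp3, the stromelysin that cleaves proteoglycans and can activate other MMP proenzymes, had signals of 2.75 and 3.68 in the stem cell cultures, neither well above background. It stood at 595 (error 59.6) in HPC Neu and 431 (error 43.2) in OB Neu. The difference was at least 4.97 in hippocampus (31.4-fold) and at least 5.22 in olfactory bulb (37.2-fold). Mmp12, the elastase best known from macrophages, had stem cell signals of 2.96 and 2.71, again not well above background, and neuron signals of 198 (error 20.1) and 79.6 (error 8.14). Its difference was at least 3.39 in hippocampus and at least 2.78 in olfactory bulb. Both genes were thus well above background in the neuron cultures only. Of 5 microglia and macrophage markers compared, 3 were higher at 2-fold in hippocampal neurons and 4 in olfactory bulb neurons. Over all genes compared, 21.9% and 26.9% were higher. Markers that entered through the neuron arrays alone could not have come out lower. Itgam and Cx3cr1, not well above background on any array, were not compared. Cd68 stood at 0.40 and 0.75. The part of these markers in the Mmp12 difference was not tested. Normexp background correction, which sets dim values otherwise, gave 2.59 and 2.91 for Mmp3 and 1.48 and 1.29 for Mmp12.

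Mmp11, stromelysin-3, which is activated inside the cell by furin, showed no such difference. Its signal was 1228 (error 123) in HPC NSC, 895 (error 89.6) in OB NSC, 1390 (error 139) in HPC Neu and 1056 (error 106) in OB Neu. The difference between states was -0.55 in hippocampus and 0.41 in olfactory bulb, on opposite sides of 0 and both short of 1 log2 unit. The olfactory bulb value turned to -0.13 with median scaling and -0.62 with spike-in scaling.

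Of the inhibitors, Timp1, a secreted inhibitor of many MMPs that is known to be inducible, was measured in all 4 cultures. Its signal was 6476 ± 239 (SD of 10 spots) in HPC NSC, 6803 ± 467 in OB NSC, 46917 ± 1968 in HPC Neu and 20885 ± 1367 in OB Neu. Both neuron cultures were above both stem cell cultures, by 2.13 in hippocampus (4.38-fold) and 1.79 in olfactory bulb (3.46-fold; 0.76 with spike-in scaling).

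Timp3, the inhibitor that binds to the matrix and also blocks ADAM proteases, had signals of 58.6 (error 6.48) in HPC NSC, 67.8 (error 7.48) in OB NSC, 480 (error 48.1) in HPC Neu and 1201 (error 120) in OB Neu. Again both neuron cultures were above both stem cell cultures, with a difference of 2.31 in hippocampus (4.95-fold) and 4.32 in olfactory bulb (19.9-fold).

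Timp2, which takes part in Mmp2 activation as well as its inhibition, was well above background in every culture. Its signal was 124681 (error 12468) in HPC NSC, 112589 (error 11259) in OB NSC, 203893 (error 20389) in HPC Neu and 125314 (error 12531) in OB Neu. The neuron minus stem cell difference was -0.02 in hippocampus and 0.33 in olfactory bulb, and 0.42 and -0.70 with spike-in scaling. Signals of different probes are not compared with each other, so the ratio of inhibitor to enzyme is not given.

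**Figure D1:**
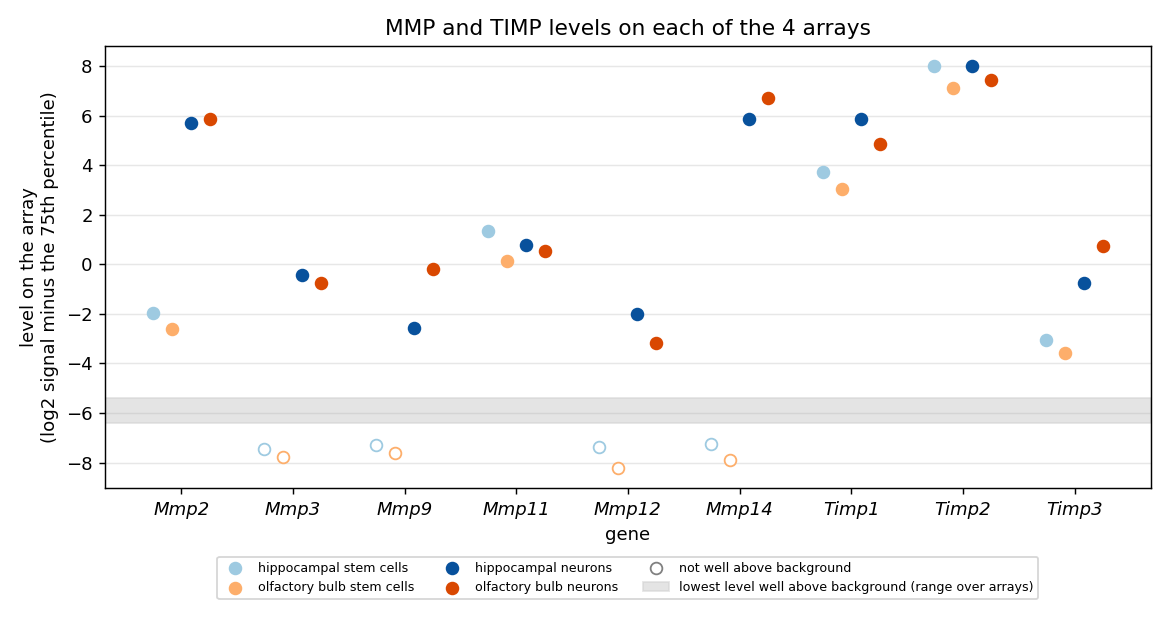
Level of each of the 9 measured genes on the 4 arrays (log2 signal minus the array's 75th percentile), 1 point per array and no error bars because each group has 1 array. Open circles mark signals not well above background and the grey band spans the lowest level well above background over the arrays. Mmp3, Mmp9, Mmp12 and Mmp14 are open in both stem cell cultures, while the levels of Mmp11 run from 0.13 to 1.34 and those of Timp2 differ by -0.02 and 0.33 between states.

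With 2-fold (1 log2 unit) as the threshold, 7 of the 9 genes were higher on the hippocampal neuron array and 0 lower, where 21.9% of all 6658 genes compared were higher, 26.8% lower and 48.7% either. The same 7 of 9 were higher on the olfactory bulb neuron array and 0 lower, where 26.9% of 7024 genes were higher, 20.0% lower and 46.8% either. The 7 were Mmp2, Mmp3, Mmp9, Mmp12, Mmp14, Timp1 and Timp3. Mmp3, Mmp9, Mmp12 and Mmp14 entered through the neuron arrays alone and could not have come out lower, so the counts over 9 are a description. Of the 5 genes well above background in every culture, 3 were higher in each source (Mmp2, Timp1 and Timp3). Of all 5501 genes well above background on all arrays, 793 were higher in hippocampal neurons and 1073 in olfactory bulb neurons. The calls of Mmp9 in hippocampus and Timp1 in olfactory bulb were lost with normexp and spike-in scaling respectively. With bounds taken at their value, the median over the 9 genes was 2.86 in hippocampus, against -0.32 over all genes compared. In olfactory bulb it was 4.32, against 0.07. These medians are likewise a description, since they include Mmp3, Mmp9, Mmp12 and Mmp14, and the hippocampal one is the bound of Mmp9.

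An additive limma fit over the 4 arrays, with cell state and source as terms, used the 2 sources as repeats of the state difference. It had 1 residual degree of freedom for each gene and drew 16.45 prior degrees of freedom from the 7114 genes fitted, so its p-values rest mostly on the spread shared by all genes. Signals below the dimmest well-above-background probe entered at that floor. With Benjamini-Hochberg adjustment over all genes at 0.05, 19.9% of genes were called higher in the neuron cultures and 17.3% lower. Of the 5 genes measured in every culture, the fit called 3, each higher. Fitted on only the 5501 genes well above background on all arrays, 800 were called higher. The estimates were 8.08 ± 0.454 (SE) for Mmp2 (limma adjusted p = 1.36e-10) and 1.96 ± 0.446 for Timp1 (adjusted p = 0.00195). For Timp3 the estimate was 3.31 ± 0.505 (limma adjusted p = 4.09e-05). For Mmp3, Mmp9, Mmp12 and Mmp14 the floor on the stem cell side fixes the direction, so the fit tests nothing for them and no p-value is given. Mmp11 stood at -0.07 ± 0.459 (limma adjusted p = 0.926) and Timp2 at 0.15 ± 0.446 (adjusted p = 0.826), neither past the threshold. The limma adjusted p ranged over the alternatives from 9.87e-11 to 0.0516 for Timp3, whose call was lost under quantile normalization. For Timp1 it ranged from 9.38e-05 to 0.130 and the call was lost under scaling to the spike-in probes. It stayed under 0.05 in each setting for Mmp2. For the source term, 0 of the 5 genes measured in every culture passed (limma adjusted p from 0.717 to 0.920). Over all genes, 0.0281% were called higher and 0.211% lower in olfactory bulb, and 569 had an unadjusted p under 0.05. For Mmp3, Mmp9, Mmp12 and Mmp14 both stem cell values entered at the floor of their array, so no source p-value is given.

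**Figure D2:**
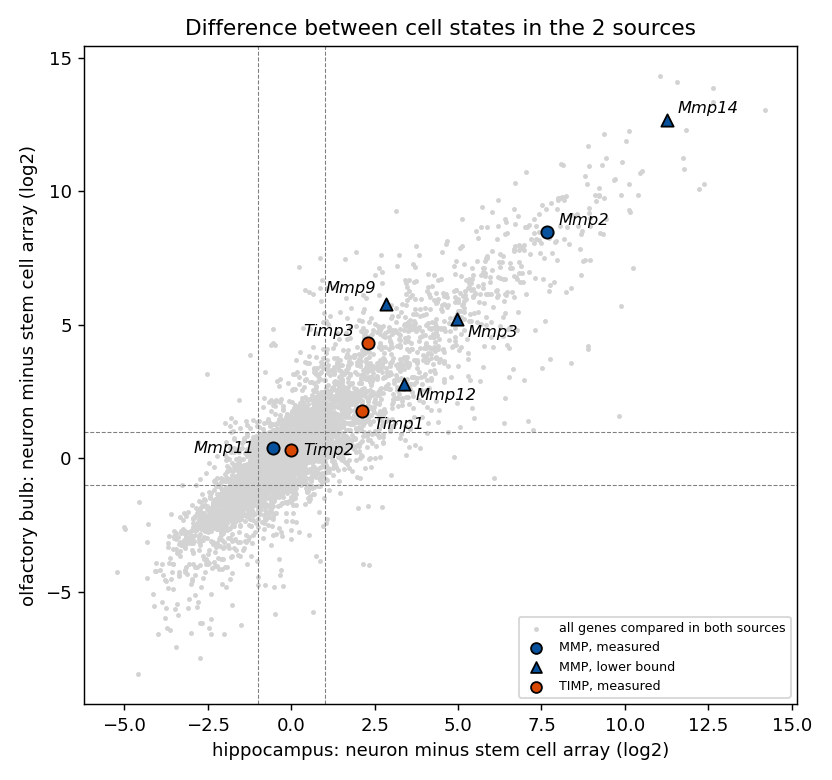
Neuron minus stem cell difference (log2) in hippocampus on the x axis and in olfactory bulb on the y axis, for all genes compared in both sources (grey, bounds included) and for the MMPs (blue) and TIMPs (orange). Triangles are lower bounds, circles are measured on both arrays, and dashed lines mark 1 log2 unit either way. Mmp14 (at least 11.26 and 12.67) and Mmp2 (7.68 and 8.48) lie toward the upper right, and Mmp11 and Timp2 lie near 0.

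The second comparison set the 2 sources against each other within a cell state, which the study's title places side by side. In stem cells 5 of the 9 genes could be compared, the other 4 being not well above background on either array. Mmp11 was lower in OB NSC than in HPC NSC, with a difference of -1.20 (2.30-fold), and was the 1 gene past 2-fold, where 6.98% of 6032 genes compared were lower, 4.16% higher and 11.1% either. Its levels were 1.34 and 0.13. The difference was -0.65 for Mmp2, -0.68 for Timp1, -0.89 for Timp2 and -0.54 for Timp3, beside a median over all genes of -0.43. Under scaling to the spike-in probes, which moved that median to 0.42, Mmp2, Timp1 and Timp3 stood at 0.20, 0.18 and 0.32 and Mmp11 at -0.35, so their direction or call rests on the scaling.

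In the neuron cultures all 9 genes could be compared. Of these, 2 were higher and 2 lower in OB Neu than in HPC Neu at 2-fold or more, where 7.65% of 7002 genes compared were higher, 8.0% lower and 15.7% either. Mmp9 was higher by 2.37 (5.16-fold), rank 84 of 6359 genes from the highest. The difference stayed between 1.75 and 2.50 under the alternatives that kept the gene. Timp3 was higher by 1.47 (2.78-fold), rank 237, and stood at 0.86 under spike-in scaling. Mmp12 was lower, at -1.16 (2.24-fold), and so was Timp1, at -1.02 (2.02-fold); with normexp background correction they stood at -0.80 and -0.99. The other differences were 0.85 for Mmp14, 0.14 for Mmp2 (-0.47 with spike-in scaling), -0.31 for Mmp3, -0.25 for Mmp11 and -0.55 for Timp2. Mmp14 reached 1.29 with normexp and 1.07 with quantile normalization. Of the pericyte, fibroblast and smooth muscle markers, 3 of 7 were higher in OB Neu than in HPC Neu and 1 lower, with Dcn at 2.41, Lum at 1.57, Cspg4 at 1.82 and Tagln at -1.08. Among astrocyte markers 2 of 7 were higher and 1 lower (Aqp4 at 4.35), among microglia and macrophage markers 1 of 5 higher and 1 lower, among endothelial markers 0 of 2 higher and 1 lower, and among neuron markers 0 of 6 higher and 3 lower (Tubb3 at -1.53). Lum, Cspg4 and Tagln were named after their values were seen. The part of these markers in the differences was not tested.

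**Figure D3:**
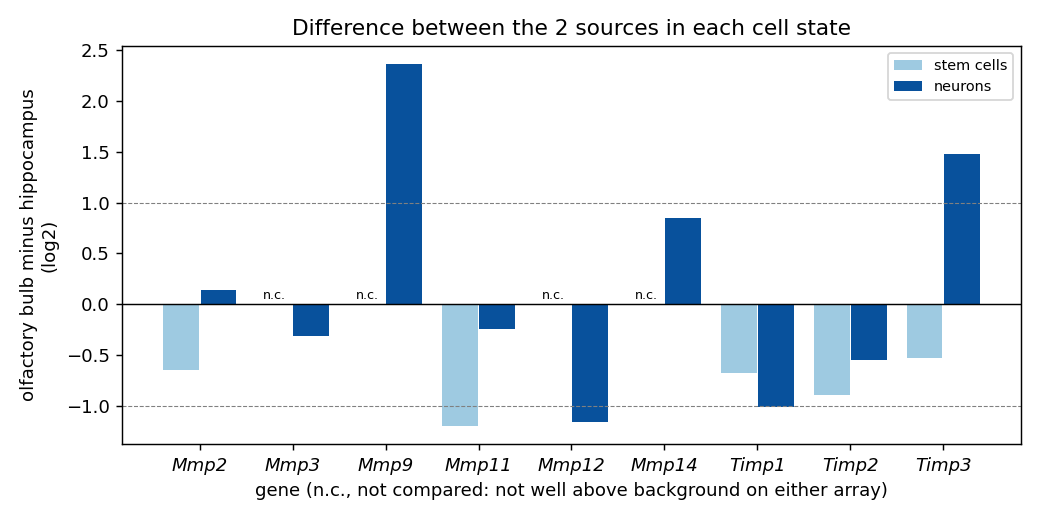
Olfactory bulb minus hippocampus difference (log2) for each gene, in stem cells (light bars) and neurons (dark bars), from 1 array per group and so with no error bar. Dashed lines mark 1 log2 unit either way and n.c. marks a gene not well above background on either stem cell array. Mmp9 (2.37) and Timp3 (1.47) are the tallest bars, and the 5 stem cell bars lie below 0, though those of Mmp2, Timp1 and Timp3 lie above it with spike-in scaling.

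The third comparison asked whether the neuron minus stem cell difference was the same size in the 2 sources. It was made for the 5 genes with a clear signal (well above background) in all 4 cultures, and a gap of 2 log2 units (4-fold) was called. Timp3 differed by 2.01 log2 units, more in olfactory bulb than in hippocampus, where 2.54% of 5501 genes were past this threshold upward and 1.58% downward. The gap for Timp3 was 1.93 with scaling to the median, 1.86 with normexp and 0.54 with spike-in scaling, each short of the threshold. The gaps were 0.80 for Mmp2, 0.96 for Mmp11, 0.34 for Timp2 and -0.34 for Timp1. With spike-in scaling they turned to -0.67, -0.51 and -1.12 for Mmp2, Mmp11 and Timp2, and Timp1 stood at -1.81. With 1 array per group none of these gaps could be tested. Mmp9, whose stem cell values are floors, had bounds of 2.86 and 5.78, which cannot be subtracted from each other.

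Genes that act with the MMPs were described by lists chosen by function, as counts at 2-fold and medians with bounds at their value; the shares and medians over all genes given above (-0.32 in hippocampus, 0.07 in olfactory bulb) are their background. Listed genes that entered through the neuron arrays alone could not have come out lower. Of 17 other MMP genes listed, 7 had a named probe and 5 could be compared. In hippocampus 3 were higher on the neuron array and 1 lower, and in olfactory bulb 4 were higher and 1 lower, with medians of 2.93 in each. Mmp23 was higher by at least 7.93 and 8.14 in hippocampus and olfactory bulb, and Mmp28, epilysin, by 2.93 and 4.08. Mmp16, a membrane-type MMP, was lower, at -1.89 and -1.99. The stromelysin Mmp10, whose promoter is printed above, was higher by at least 6.97 in hippocampus and at least 2.93 in olfactory bulb, and was lower in OB Neu than in HPC Neu, at -4.59. Mmp7 and Mmp8 were not well above background on any array. Mmp24, named after its values were seen, was -0.05 in hippocampus and 2.14 in olfactory bulb.

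Of 9 other inhibitors and surface partners with a probe, 6 of 9 compared were higher in hippocampal neurons and 4 of 8 in olfactory bulb neurons, with 0 lower (medians 1.26 and 0.88). With spike-in scaling the olfactory bulb counts were 3 higher and 2 lower. Pcolce, which enhances procollagen processing, was higher by 10.12 and 10.29, and the broad protease inhibitor A2m by 5.75 and 7.15. Among the ADAM and ADAMTS genes, relatives of the MMPs that shed surface proteins or cut proteoglycans, 4 and 5 of 6 were higher and 0 lower (medians 1.65 and 1.51), and 2 of 6 were higher in olfactory bulb with spike-in scaling. Adamts1 was higher by at least 5.81 and 6.82 and Adamts5 by 4.85 and 4.20; both cleave aggrecan-type proteoglycans.

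In the plasminogen activator system, whose product plasmin can activate MMP proenzymes, 7 of 10 genes were higher in hippocampal neurons and 8 of 9 in olfactory bulb neurons, with 0 lower (medians 2.003 and 3.79). The urokinase gene Plau was higher by at least 6.35 and 4.57, and was lower in OB Neu than in HPC Neu, at -2.34. Serpinf1 was higher by 7.43 and 8.18. Of 11 cathepsin and cystatin genes, lysosomal proteases and their inhibitors, 6 and 8 were higher and 0 lower (medians 1.72 and 2.68), with the collagen-cutting cathepsin Ctsk at no less than 9.68 in hippocampus and at 10.44 in olfactory bulb. Ctsh was higher by at least 9.24 and 9.86.

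Of the matrix substrates 11 could be compared. In hippocampus 8 were higher and 1 lower (median 8.07), and in olfactory bulb 9 were higher and 2 lower (median 8.04). Kept to the 8 well above background on all arrays, 5 were higher and 1 lower in hippocampus (median 3.64). In olfactory bulb 6 of those were higher and 2 lower (median 6.12). The fibrillar collagen genes Col3a1 (at least 12.65 and 13.87) and Col1a2 (11.75 and 11.23) were higher. Brevican, Bcan, a brain proteoglycan, was lower, at -1.71 and -2.53. This list shares Col3a1 and Dcn with the pericyte and fibroblast markers. Among the inducers and transcription factors, 4 of 13 were higher and 2 lower in hippocampus (median 0.58), and 6 of 12 higher and 1 lower in olfactory bulb (median 0.95). With spike-in scaling the olfactory bulb counts were 3 higher and 5 lower (median -0.08). The AP-1 subunit gene Fosl1 was higher by 3.28 and 5.48 and the cytokine gene Il1b by at least 2.99 and 3.17. Of the other AP-1 genes, Fosl2 was higher in both sources (1.67 and 3.23), Junb stood at 0.58 and 1.42, Fos at 0.01 and -0.69, Jun at -0.64 and 0.48, and Jund at -1.37 and -0.84; with spike-in scaling Jun stood at -0.55 and Junb at 0.39 in olfactory bulb. Those 5 were named after their values were seen.

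**Figure D4:**
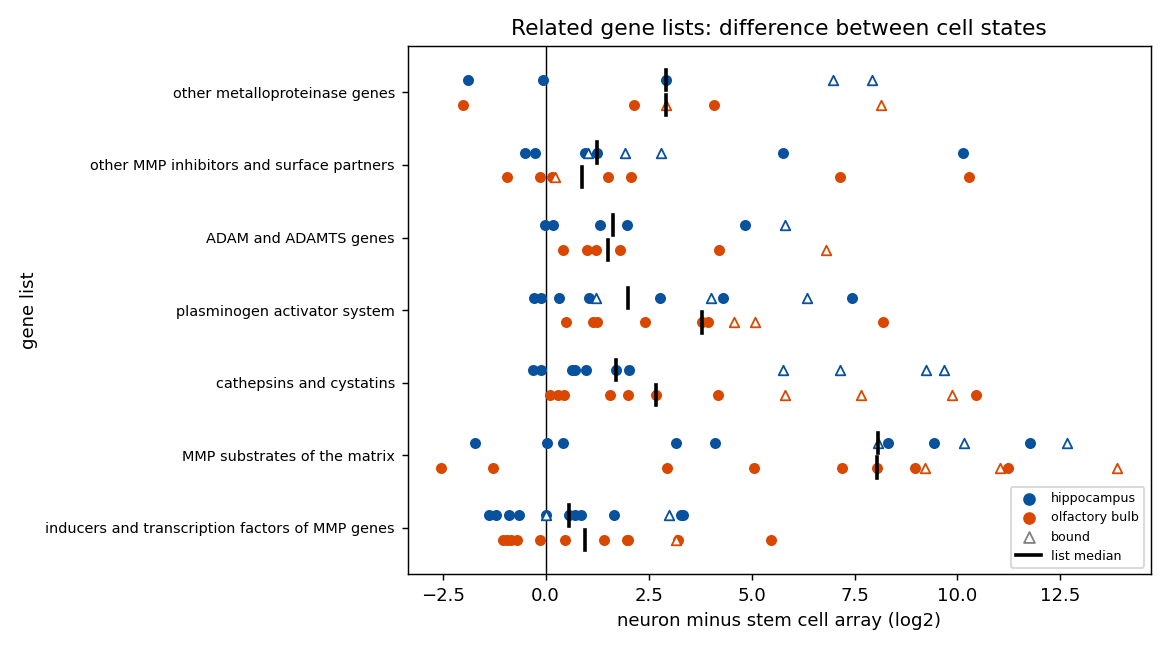
Neuron minus stem cell difference (log2) of each measured gene in 7 lists of related genes, in hippocampus (blue) and olfactory bulb (orange). Open triangles are bounds and black ticks are list medians with bounds at their value. The matrix substrates reach the highest median (8.07 and 8.04), and the inducers (0.58 and 0.95) and the inhibitors and surface partners (1.26 and 0.88) have the lowest.

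For those 5 genes, the most similar profiles among 5501 genes measured in every culture were found by the root mean square distance between log2 levels over the 4 arrays, after each gene's mean was subtracted. Nearest to Mmp2 were Prkcd (0.072), Hspb1 (0.15) and Serpinf1 (0.16). Nearest to Timp1 were Npw (0.055), Pak1 (0.080) and Stxbp2 (0.12). Among the nearest to Timp3 were Pfkfb1 (0.14) and Apod (0.14). For the flatter profile of Timp2 they were Pcsk2 (0.032), Fzd3 (0.041) and Bag3 (0.043), and for Mmp11 they were Or4k50 (0.048), Taar7b (0.057) and Wdr45 (0.059). These distances compare shapes over 4 arrays only. No 2 of the 5 genes stood among each other's 3 nearest.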

How the data were processed

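Per the submitters' processing notes and the file headers, the authors read the arrays with Agilent Feature Extraction 10.5.1.1 and deposited the background-subtracted fluorescence intensity of each spot; no scaling between arrays was recorded. The deposited series table held the same intensities. Here log2 signals were set to each array's 75th percentile. Of 41012 non-control probes, 254 with a spot marked as an outlier on any array were left out and no spot was saturated. Probes were named by accession through RefSeq's gene table (GRCr8): 10783 of 40758 matched 1 gene, 0 several and 29975 none. The design's own build is rn4, so no probe positions are given. A gene with several probes took the one with the highest mean over the 4 arrays. A gene entered a comparison if well above background on at least 1 of its 2 arrays; a dim value was replaced by the array's lowest well-above-background signal or its own, whichever was higher. Where spots were printed 10 times, their median SD was 0.0598 to 0.0923 log2 units over the arrays.

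With 1 array per group no single comparison has a test. The additive fit used limma 3.58.1 in R 4.3.3. Its code was also run on simulated data in which the additive model held, which cannot show that it holds here. The number of arrays limits the precision. Members and lists were chosen with earlier results of these data known. Named from each list were up to 2 genes per direction whose lesser difference over the sources was greatest, the first 3 measured cell type markers, and the 3 nearest profiles. Alternatives were scaling to the median, quantile normalization, 7 spike-in probes, normexp (offset 50) on median spot signals, no filter on dim probes, only genes measured on every array, the mean over a gene's probes, and the deposited table. Genes named outside this rule are said to be. A gene that the rule takes is not reported here.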

Additional observations from a re-analysis of the deposited data

Results flagged for a closer look

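For 4 genes the 2 arrays of one contrast and the 2 arrays of the other lay on opposite sides of 0; with 1 array per group these contrasts were not tested. Mmp11 differed between neurons and stem cells by -0.55 in hippocampus and by 0.41 in olfactory bulb. Timp2 differed in the same contrast by -0.0175 and 0.33. Between sources, Mmp2 was lower in olfactory bulb than in hippocampus among stem cells (-0.65) and higher among neurons (0.14). Timp3 behaved likewise, at -0.54 among stem cells and 1.47 among neurons. Of these 8 values only the last passed 1 log2 unit. The signs of Mmp11 in olfactory bulb (-0.62), of Timp2 in both sources (0.42 and -0.70), of Mmp2 between sources (0.20 and -0.47) and of Timp3 among stem cells (0.32) turned with spike-in scaling.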

How the results depend on the processing

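Of the 7 genes higher on the neuron arrays, Mmp2, Timp1 and Timp3 stayed above 0 in both sources under every alternative. For Mmp3, Mmp9, Mmp12 and Mmp14 the floor on the stem cell side fixed the sign wherever it was used, so their sign is no check. Calls were lost for Mmp9 in hippocampus with normexp (0.93) and for Timp1 in olfactory bulb with spike-in scaling (0.76). Over the alternatives Mmp2 ranged from 7.12 to 8.12 in hippocampus and from 7.45 to 8.74 in olfactory bulb, Timp1 from 1.67 to 2.74 and 0.76 to 2.14, and Timp3 from 1.56 to 2.75 and 3.29 to 4.32. Genes with a floored side moved more, in hippocampus from 8.67 to 13.10 (Mmp14), 2.59 to 7.03 (Mmp3), 0.93 to 4.72 (Mmp9) and 1.48 to 5.34 (Mmp12), the lowest with normexp. Mmp11 in hippocampus passed 1 log2 unit downward with median scaling (-1.01), and Timp2 between the neuron cultures with spike-in scaling (-1.16). Kept to genes well above background on all arrays, 5 of the family remain, which leaves 3 of them higher in each source, beside 793 and 1073 of all 5501 such genes. In stem cells 0 were lower with normexp or spike-in scaling instead of 1. In the neuron cultures 1 was higher and 1 lower on all-array genes, 1 was higher with spike-in scaling, 0 were lower with normexp and 1 was lower with quantile normalization; with median scaling 1 was lower in hippocampal neurons.

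Counts over all genes moved by more than 1.5 times as follows. With spike-in scaling, 976 were lower in hippocampal neurons, 1128 higher and 3308 lower in olfactory bulb neurons, 1114 higher and 72 lower in olfactory bulb stem cells against hippocampal ones, and 257 higher and 1516 lower between neurons. The difference of changes gave 26 and 731, and limma's state term 855 and 556. With median scaling, 2856 and 2363 were lower in hippocampal and olfactory bulb neurons, and limma called 2087 lower. On all-array genes, 793 and 1073 were higher in the 2 neuron cultures, 257 were higher and 303 lower between neurons, and limma called 800 higher for state and 20 and 62 for source. With normexp the source counts were 133 and 208 in stem cells and 343 and 334 in neurons, the difference of changes gave 88 and 47, and limma's source term 13 and 55. With no filter, 726 were lower in olfactory bulb stem cells, 812 were higher between neurons, and the difference of changes gave 529 and 267. Quantile normalization left limma 881 and 641 state calls. Limma's source calls were 0 and 0 with median scaling, quantile normalization or no filter, and 0 and 1 with the mean over probes. List medians in hippocampus and olfactory bulb moved across 1 log2 unit or 0 in these cases. The ADAM median in olfactory bulb was 0.98 with median and 0.49 with spike-in scaling. The inducers had 1.02 in hippocampus and -0.0784 in olfactory bulb with spike-in scaling and 1.03 in olfactory bulb with quantile normalization. The inhibitors and partners had 0.80 (median scaling) and 0.69 (normexp) in hippocampus, and 1.52 (no filter), 1.79 (all-array genes) and 1.18 (quantile) in olfactory bulb. In hippocampus on all-array genes the other MMPs turned to -0.0493, the cathepsins had 0.72 and the plasminogen system 0.69 (0.95 with normexp). All-array genes leave out those with a floored stem cell value by construction; the cause of the other shifts was not tested.

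Scaling moved the median over all genes in hippocampus, olfactory bulb, stem cells and neurons from -0.32, 0.07, -0.43 and -0.01 to -0.78, -0.41, -0.45 and -0.11 (median) and 0.12, -0.90, 0.42 and -0.62 (spike-in). The share of higher among called genes went from 44.9%, 57.4%, 37.4% and 48.9% to 66.5%, 25.4%, 93.9% and 14.5% with spike-in scaling. The deposited table gave identical values. Naming by gene symbol and a slide block were not run, since the files used hold no symbol column and each slide holds 1 state. Source was a term of the additive fit, which so compared the neuron and stem cell arrays within each source. The groups share only 1 replicate number, given in accession order, which gives no further pairing.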

Other observations

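Some genes of the related lists differed between the sources in either direction. Vtn, the matrix and serum protein vitronectin, was higher in OB Neu than in HPC Neu by 3.12 log2 units. Fosl1, an AP-1 subunit gene, was lower in OB NSC than in HPC NSC, at -3.35. Ctss, cathepsin S, a lysosomal protease known from antigen-presenting cells, was lower in OB NSC than in HPC NSC, at -3.10 on the log2 scale, and differed by 0.45 between the neuron cultures. Cst6, a cystatin that inhibits cathepsins, was lower in OB Neu than in HPC Neu, at -2.63. The lipocalin gene Lcn2, whose product binds Mmp9, was well above background on the HPC Neu array only, and was lower in OB Neu, at -3.56 or less, while Mmp9 was higher there by 2.37. Thbs1, a matrix protein that binds MMPs, was lower in OB Neu, at -2.25. Except for Fosl1, which the rule names, these genes were picked after their values were seen.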
